A study of Mus musculus with 22 samples.

Results

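The windows of 5 Notch pathway genes (Dll4, Jag1, Notch1, Notch4 and Hey1) were examined in the ATAC-seq peaks of mouse retinal endothelial cells. ATAC-seq cuts and tags DNA with the Tn5 transposase where chromatin is accessible, and a peak is an interval in which such cuts were called as enriched. Members were all peaks whose midpoint lay in 1 of 5 fixed mm9 windows, which amounted to 80 of 49558 gTKO peaks and 122 of 57267 control peaks on the placed chromosomes (1 to 19, X and Y). The members are fixed by position, but the windows were chosen with earlier results of these lists known.

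The gTKO pups carried S1pr3-/- S1pr1flox/flox S1pr2flox/flox with Rosa26-CreERT2 (3 libraries), and the control pups carried the same alleles without the recombinase (3 libraries). Both genotypes were on the C57BL/6 background, received 100 µg tamoxifen by intraperitoneal injection from postnatal day 1 to 3 and were 6 days old at collection, although the cell type label also calls the cells adult. Both therefore lacked S1pr3, and the targeted loss concerned S1pr1 and S1pr2, receptors for the lipid mediator sphingosine 1-phosphate. The Rosa26 locus that drives the recombinase is active in most cell types and is not specific to endothelium, and the control pups had no recombinase. Each library was made from 5000 to 8000 sorted cells and pooled the retinas of 4 to 6 pups. Whether the alleles had recombined in the sorted cells, and whether endothelial marker genes were accessible, was not checked here, because the lists hold positions without gene names and no mm9 annotation was used here.

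Notch signalling passes between touching cells. In the growing retinal plexus the ligand Dll4, displayed by tip cells, activates Notch receptors on the cells behind them and restrains their sprouting, while Jag1 can oppose Dll4 there. Cleavage of the receptor frees its intracellular part, which joins the DNA-binding protein RBPJ and switches on targets such as Hey1, a transcriptional repressor of the basic helix-loop-helix class.

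The study's title concerns AP-1, the family of Jun and Fos transcription factors, so the annotated promoters were searched for its motif, spelled TGACTCA or TGAGTCA (each is the other's reverse complement, so both strands were covered). RefSeq promoter sequences (GRCm38.p6, 250 bases before to 50 after the annotated start) were held for 4 of the 5 genes, Dll4, Jag1, Notch1 and Notch4. Among these, Notch4 held 1 match and the other 3 held none, while 5.20% of all 32851 promoters of the same length held a match. The RBPJ core TGGGAA (reverse complement TTCCCA) was found in none of the 4 and in 25.6% of all promoters. The promoters of Dll4, where the lists differed most, and of Notch4, which holds the match, are shown from 5′ to 3′ on the plus strand, with the AP-1 match in capitals. Each is cut, for Dll4 to the 250 bases before the start and for Notch4 to these and the first 10 bases after it. The printed stretches lie at chr2:119325534-119325783 and chr17:34564045-34564304.
Dll4: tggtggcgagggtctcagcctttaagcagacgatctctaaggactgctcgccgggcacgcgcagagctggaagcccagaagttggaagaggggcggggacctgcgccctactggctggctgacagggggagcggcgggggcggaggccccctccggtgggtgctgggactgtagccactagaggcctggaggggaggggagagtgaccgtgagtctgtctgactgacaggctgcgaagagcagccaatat
Notch4: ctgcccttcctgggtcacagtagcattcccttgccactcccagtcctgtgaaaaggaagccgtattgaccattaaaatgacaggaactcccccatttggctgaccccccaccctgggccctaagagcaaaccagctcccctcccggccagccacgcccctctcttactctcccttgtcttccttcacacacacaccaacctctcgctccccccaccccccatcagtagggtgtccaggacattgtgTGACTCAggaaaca
The Notch4 match begins 4 bases before the annotated start. Of the 250 bases before the start, 65.6% were G or C for Dll4. These sequences are in another build than the peaks and were not placed on them, and a match is a string of letters, not a bound site.

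Each genotype has 1 peak list, named in the labels of its 3 libraries, so the values below have no replicate error and no test between genotypes was possible. A peak is called shared where 1 bp or more of it lay in a peak of the other genotype, and gTKO-only or control-only if not. Shares carry exact (Clopper-Pearson) 95% binomial intervals, which cover counting error only and treat neighbouring peaks as independent. Read depth is unknown, and the lists hold no height or score. A missing peak is a stretch not called at that depth, and fewer cells with an open region cannot be told apart from a region less open in each cell.

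In the windows of all 5 genes together, the gTKO list held 80 peaks covering 53962 bp, against 122 peaks covering 82737 bp in the control list. The gTKO coverage was 65.2% of the control coverage, while over all placed chromosomes it was 77.1%. Of the control peaks, 55 were control-only (45.1%, interval 36.1 to 54.3%), against 27.0% of all placed control peaks. Of the gTKO peaks, 2 were gTKO-only (2.50%, interval 0.304 to 8.74%), against 9.75% of all placed gTKO peaks. The Dll4 window supplied 35 of the 55 control-only peaks. Without it, 20 of 69 control peaks were control-only (29.0%, interval 18.7 to 41.2%) and the gTKO coverage was 75.0% of the control coverage, both near the values over all placed peaks.

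**Figure D1:**
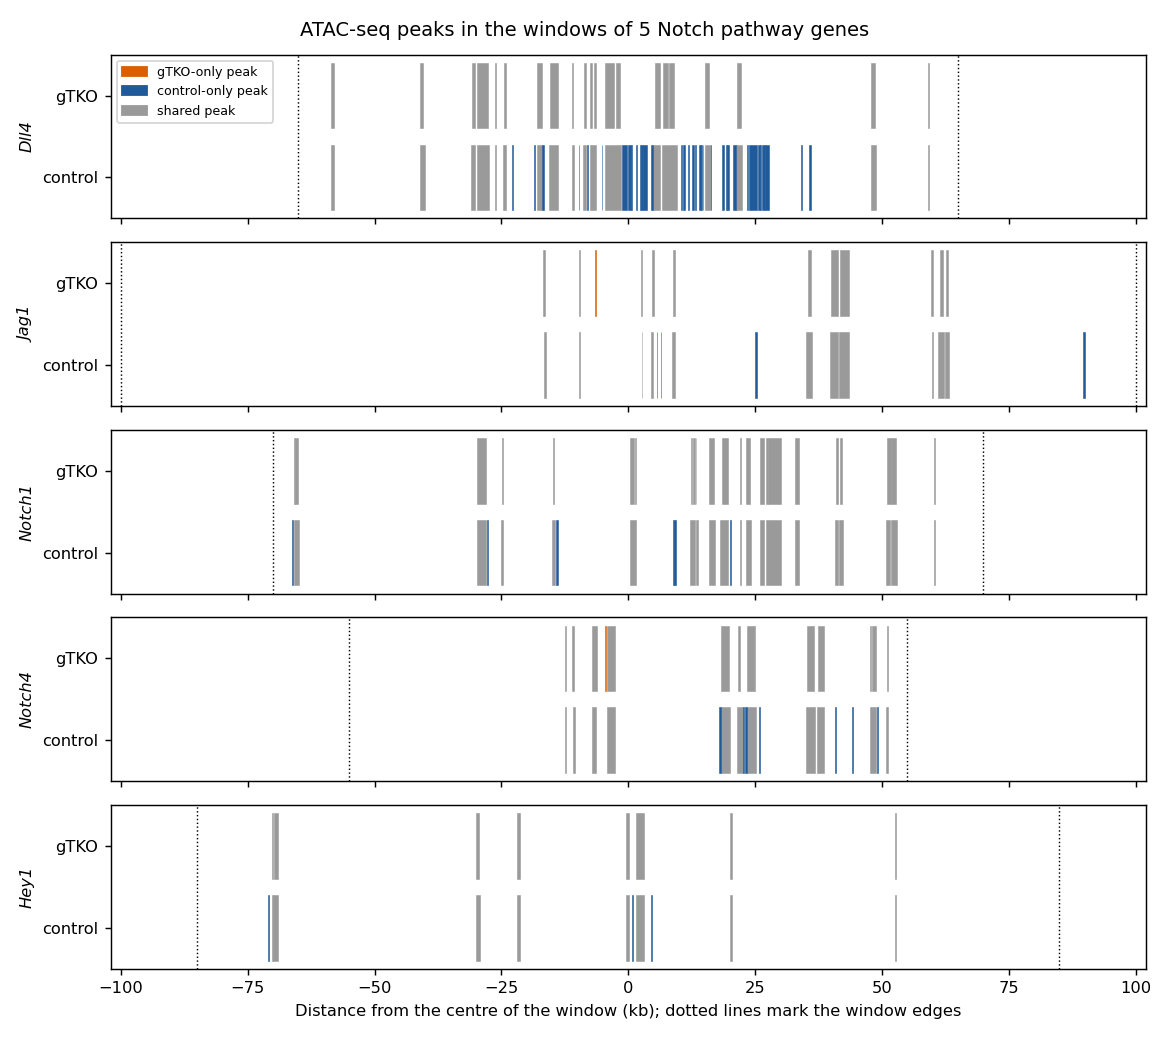
Peaks of the gTKO list (upper row of each panel) and the control list (lower row) by distance in kb from the centre of each window. Grey marks shared peaks, orange gTKO-only and blue control-only peaks. Most of the 35 control-only peaks of the Dll4 window lie between its centre and 40 kb to the right, and the only gTKO-only peaks lie in the Jag1 and Notch4 windows.

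Dll4 encodes the transmembrane Notch ligand of tip cells and arteries. Its window (chromosome 2, 119090001 to 119220000, 130 kb) held 22 gTKO peaks covering 17015 bp, against 53 control peaks covering 33475 bp. The gTKO list thus covered 13.1% of the window and the control list 25.8%. All 22 gTKO peaks were shared, and the exact interval for 0 gTKO-only peaks of 22 reaches up to 15.4%. Of the 53 control peaks, 35 were control-only (66.0%, interval 51.7 to 78.5%), and they made up 12150 bp, or 36.3% of the control coverage there. The gTKO list covered 16460 bp less than the control list, of which control-only peaks held 12150 bp and the remaining 4310 bp lay in shared peaks. Under the 1 bp rule every peak of the gTKO list had a control counterpart, while most control peaks had no gTKO counterpart. When the overlap had to cover 50% of both peaks, 39 of the 53 control peaks had none (73.6%, against 34.8% of all placed control peaks). Under that rule 8 of the 22 gTKO peaks had none, and the share over all placed gTKO peaks was not read out.

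The control-only peaks of the Dll4 window were not spread evenly along it. In the 40 kb from 119150001 to 119190000, a stretch chosen after its values were seen, the gTKO list held 8 peaks covering 7167 bp, against 33 control peaks covering 20147 bp, of which 28 were control-only. In the remaining 90 kb the gTKO list held 14 peaks covering 9848 bp, against 20 control peaks covering 13328 bp, of which 7 were control-only. The gTKO coverage was 35.6% of the control coverage in the 40 kb stretch and 73.9% in the rest. As the stretch was picked from these values, its contrast with the rest is a description only. The control-only share of the rest was 35.0%.

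By 10 kb segment, the gTKO list covered 2745 bp against 6820 bp in the control list between 119150001 and 119160000. The next segment had 2718 bp in the gTKO list against 5899 bp in the control list. From 119170001 to 119180000 the values were 1704 bp in the gTKO list against 5031 bp in the control list. In the segment after it no gTKO sequence was called, against 2397 bp in the control list. The first, the fourth and the last segment differed less. The first had 564 bp in the gTKO list against 660 bp in the control list, the fourth (119120001 to 119130000) 3161 bp against 3418 bp, and the last 224 bp against 259 bp.

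**Figure D2:**
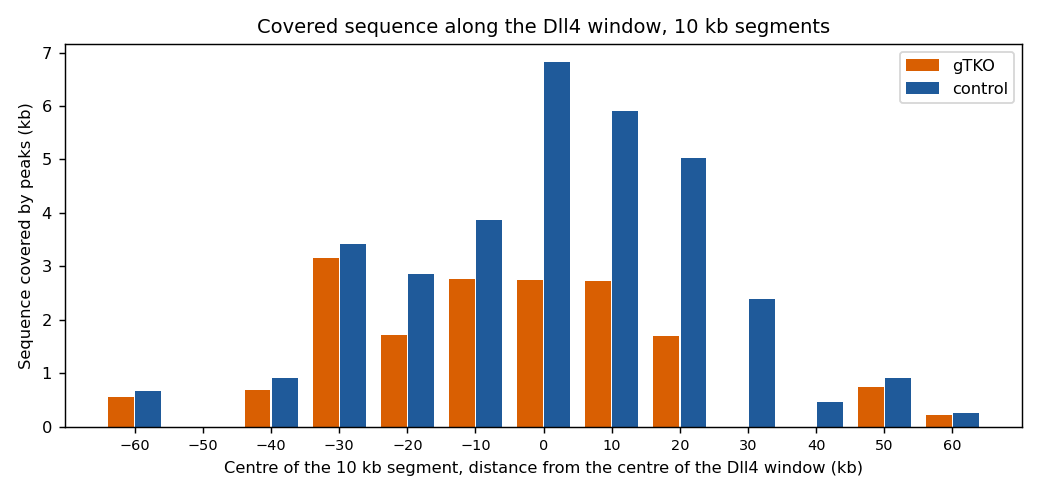
Sequence covered by peaks (kb, vertical axis) in 10 kb segments of the Dll4 window, by distance of the segment from the window's centre (kb), for the gTKO list (orange, left bar) and the control list (blue, right bar). In the segment at the centre the bars stand at 2745 bp (gTKO) and 6820 bp (control), and 30 kb to the right no gTKO sequence was called against 2397 bp in the control list.

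Most control-only peaks of the Dll4 window came in long unbroken runs, that is, consecutive control peaks of which none had a gTKO partner. Of the 9 runs in the window, 3 had 8 peaks and 1 had 5, while the others had only 1 or 2. The first run of 8 spanned 6.14 kb (119153691 to 119159831), the second 4.46 kb (119165358 to 119169816) and the third 12.6 kb (119178488 to 119191111). The run of 5 reached from 119171236 to 119176169. Over all placed chromosomes 63 of 10342 runs (0.609%) had 8 or more peaks, and the longest had 61. A length of 8 is that of the longest runs in the Dll4 window, and 220 of all runs (2.13%) had 5 or more peaks. The part of peak density in the length of runs was not tested. No run that lay wholly inside 1 of the other 4 windows was longer than 2 peaks. The control-only peak from 8594012 to 8594178 at Hey1 belonged to a run that reached past the low edge of its window. The control peak before it, outside the window (8511065 to 8511251), was control-only too, and the length of that run was not read out.

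The widest control-only peaks at Dll4 measured 1662 bp (119178768 to 119180429), 991 bp (119153691 to 119154681) and 699 bp (119157945 to 119158643). The first of them lay 1481 bp from the nearest gTKO peak, the second 217 bp and the third 1695 bp. The farthest control-only peak (119189075 to 119189236, 162 bp) lay 11.8 kb from any gTKO peak. The median distance of the 35 control-only peaks to a gTKO peak was 1.68 kb, against 3.76 kb for all placed control-only peaks and 0.62 kb for the 20 of the other 4 windows. Of the 35, 17 (48.6%) lay within 150 bp of another control peak, against 21.6% of all placed control-only peaks. In the other 4 windows together 7 of 20 did (35.0%). These were 4 of 6 at Notch1, 3 of 7 at Notch4, 0 of 4 at Jag1 and 0 of 3 at Hey1. When peaks of a list within 150 bp of each other were merged first, 22 of 40 control peaks in the Dll4 window were control-only (55.0%, against 24.2% of all placed control peaks).

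The control-only share falls with the width of a peak over all placed chromosomes, so the Dll4 window was also read within classes of width. Of its control peaks of 150 to 199 bp, 13 of 13 were control-only, against 66.4% of all placed control peaks of that width. From 200 to 299 bp, 9 of 10 were control-only, against 38.5% of all. From 300 to 499 bp, 9 of 12 were control-only, against 19.1% of all. Of those of 500 bp or more, 4 of 18 were control-only (22.2%, interval 6.41 to 47.6%), against 2.37% of all. The Dll4 share was above that of all placed control peaks in each class. In the other 4 windows 0 of 34 control peaks of 500 bp or more were control-only (upper limit of the exact interval 10.3%).

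**Figure D3:**
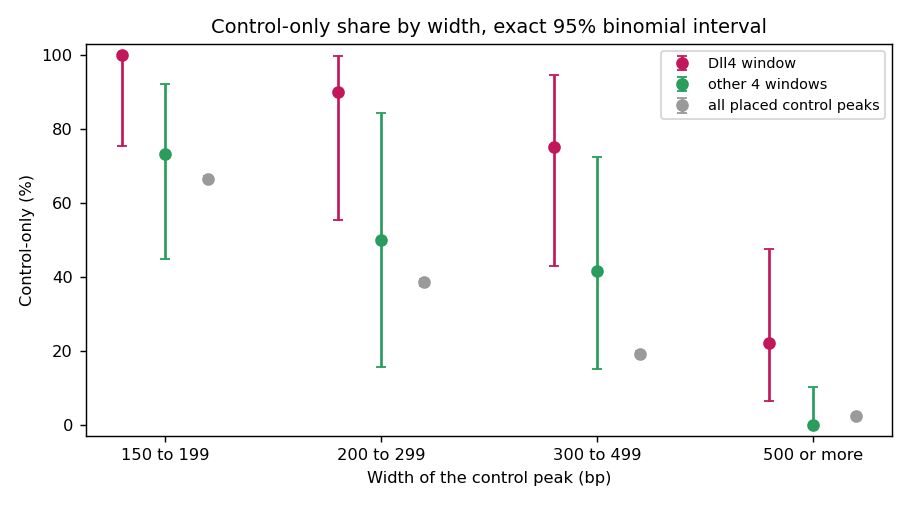
Share of control peaks that were control-only (%, vertical axis) by width of the peak (bp) in the Dll4 window, the other 4 windows and all placed chromosomes, with exact 95% binomial intervals as bars. The Dll4 points stand at 100% for the narrowest class and 22.2% for the widest, against 66.4% and 2.37% of all placed control peaks.

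The shared peaks of the Dll4 window were mostly narrower in gTKO. The widest gTKO peak measured 2294 bp (119125103 to 119127396) and matched a control peak of 2407 bp. The widest control peak, 3259 bp (119150361 to 119153619), held 2 gTKO peaks that covered 2745 bp of it. A further 3 control peaks of this window each held 2 gTKO peaks, and all 4 lay between 119147563 and 119164536. Control peaks that held 2 or more gTKO peaks were 22.2% of the 18 shared control peaks at Dll4, 14.3% of those in the other 4 windows and 7.23% of all placed shared control peaks (5.28% of all placed control peaks). The shared control peaks also differed in width, with medians of 964 bp at Dll4, 827 bp in the other 4 windows and 508 bp over all. The part of width in these shares was not tested. Among 14 peaks matched 1 to 1, the gTKO peak was the narrower in 13, and it was so in 79.5% of all placed pairs. The pair that differed most measured 831 bp in gTKO and 1263 bp in control (control 119176181 to 119177443). The median ratio of gTKO to control width was 0.84 at Dll4 and 0.87 over all placed pairs, which leaves out the split peaks.

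Jag1 encodes the other Notch ligand considered, a transmembrane protein of the Serrate type. Its window (chromosome 2, 136800001 to 137000000, 200 kb) held 13 gTKO peaks covering 6959 bp, against 15 control peaks covering 9122 bp. The gTKO coverage was 76.3% of the control coverage. Of the control peaks, 4 were control-only (26.7%, interval 7.79 to 55.1%), and 1 of the gTKO peaks was gTKO-only (7.69%, interval 0.195 to 36.0%). Both shares stood near those of all placed peaks.

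The widest peak at Jag1 measured 1768 bp in gTKO and 1911 bp in control (control 136941628 to 136943538), and its neighbour 1529 bp in gTKO and 1540 bp in control. These large regions were thus nearly equal between the lists. The control-only peaks included 1 of 321 bp (136925017 to 136925337), 10002 bp from the nearest gTKO peak, and 1 of 317 bp (136989639 to 136989955), 26.7 kb from it. The third widest measured 183 bp (136905589 to 136905771). The gTKO-only peak (136893484 to 136893678) was 195 bp wide and 2947 bp from the nearest control peak. The pair that differed most measured 447 bp in gTKO and 1162 bp in control (control 136961118 to 136962279). Of 10 pairs the gTKO peak was the narrower in 8 and the wider in 2, among them 401 bp in gTKO against 290 bp in control (control 136904512 to 136904801).

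Notch1 encodes the main Notch receptor of sprouting endothelium. Its window (chromosome 2, 26260001 to 26400000, 140 kb) held 23 gTKO peaks covering 14918 bp, against 25 control peaks covering 20214 bp. The number of peaks was thus nearly equal, while the gTKO coverage was 73.8% of the control coverage. Of the control peaks, 6 were control-only (24.0%, interval 9.36 to 45.1%). None of the 23 gTKO peaks was gTKO-only (upper limit of the exact interval 14.8%).

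The gTKO list covered 14918 bp at Notch1, which is 5296 bp less than the control list, and control-only peaks held 1603 bp of the control coverage. Most of the difference thus lay in peaks that were narrower or divided in gTKO. The widest control peak, 3075 bp (26357097 to 26360171), held 2 gTKO peaks covering 2895 bp, the larger of them 2515 bp wide and the widest gTKO peak of the window. In all, 4 control peaks each held 2 gTKO peaks. Of 15 pairs the gTKO peak was the narrower in 14. The pair that differed most measured 217 bp in gTKO and 743 bp in control (control 26314910 to 26315652), and a control-only peak of 396 bp followed 24 bp further on (26315677 to 26316072). The other 2 widest control-only peaks measured 480 bp (26339011 to 26339490), at 2844 bp from the nearest gTKO peak, and 225 bp (26302086 to 26302310), at 157 bp. The exception was the control peak from 26352053 to 26352226, whose gTKO partner, 251 bp wide, was 1.44 times its width.

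Notch4 encodes a Notch receptor found mainly in endothelium. Its window (chromosome 17, 34650001 to 34760000, 110 kb) held 14 gTKO peaks covering 10442 bp, against 18 control peaks covering 13827 bp. The gTKO coverage was 75.5% of the control coverage. Of the control peaks, 7 were control-only (38.9%, interval 17.3 to 64.3%), and the interval included the share of all placed control peaks. Among the gTKO peaks, 1 was gTKO-only (7.14%, interval 0.181 to 33.9%).

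The control-only peaks at Notch4 were small. The widest measured 350 bp (34722842 to 34723191), 206 bp (34730759 to 34730964) and 200 bp (34728115 to 34728314). The gTKO-only peak (34700372 to 34700534) was 163 bp wide and lay 287 bp from a control peak that had a gTKO partner of nearly its own width, 1510 bp in gTKO and 1552 bp in control. The widest peak measured 1565 bp in the gTKO list (34723358 to 34724922) and 1889 bp in the control list (34739958 to 34741846). The control partner of the first was 1789 bp wide, and the gTKO partner of the second 1502 bp. The pair that differed most measured 525 bp in gTKO and 1051 bp in control (control 34726534 to 34727584), and of 9 pairs the gTKO peak was the narrower in 7.

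Hey1, the Notch target of the group, had the fewest peaks. Its window (chromosome 3, 8580001 to 8750000, 170 kb) held 8 gTKO peaks covering 4628 bp, against 11 control peaks covering 6099 bp. The gTKO coverage was 75.9% of the control coverage. All 8 gTKO peaks lay wholly within control peaks, and none was gTKO-only (upper limit of the exact interval 36.9%). Of the control peaks, 3 were control-only (27.3%, interval 6.02 to 61.0%).

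The 3 control-only peaks at Hey1 measured 250 bp (8669508 to 8669757), 177 bp (8665721 to 8665897) and 167 bp (8594012 to 8594178), and each lay within 1395 bp of a gTKO peak. The widest peak measured 1488 bp in gTKO and 1566 bp in control (control 8666593 to 8668158). In all 8 pairs the gTKO peak was the narrower, and the pair that differed most measured 632 bp in gTKO and 869 bp in control (control 8634924 to 8635792). The widest region of the Hey1 window was thus called at almost the same extent in both genotypes.

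**Figure D4:**
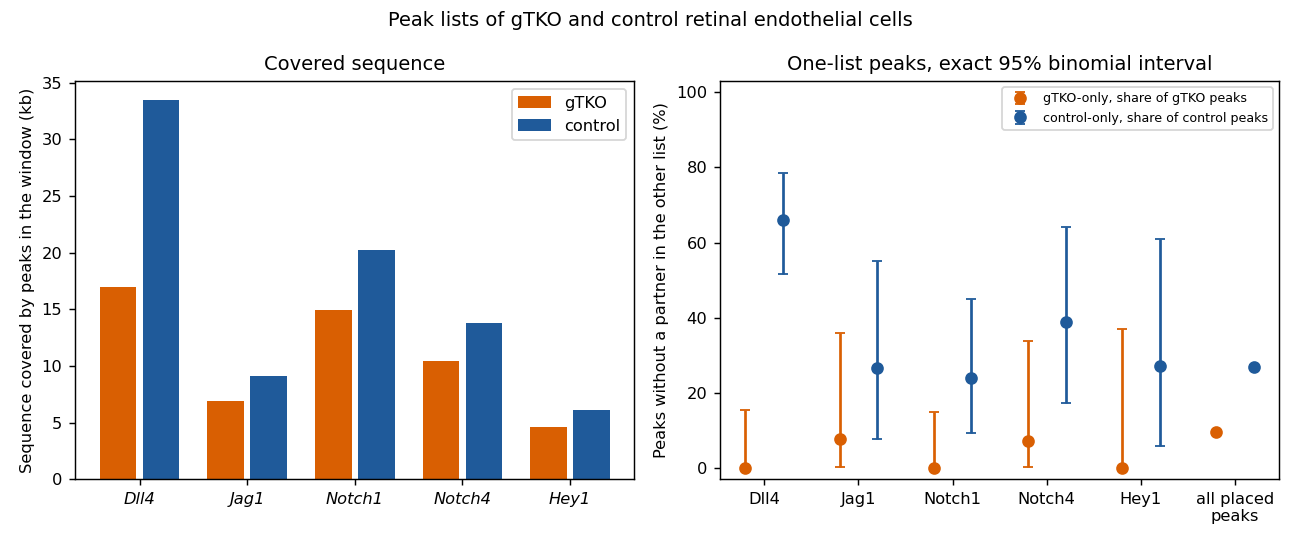
Left, sequence covered by peaks in each window (kb) in the gTKO list (orange) and the control list (blue). Right, share of gTKO-only peaks among gTKO peaks (orange) and of control-only peaks among control peaks (blue), in %, with exact 95% binomial intervals. The control-only share at Dll4 (66.0%) lies above those of the other windows (24.0 to 38.9%) and of all placed control peaks (27.0%).

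In each of the 5 windows most pairs were narrower in gTKO. Over all of them the gTKO peak was the narrower in 50 of 56 pairs (89.3%, against 79.5% of all placed pairs) and the wider in 6. No interval was computed for this share, so its distance from that of all placed pairs was not judged. The control peaks of these pairs were also wider (median 758.5 bp, against 476 bp in all placed pairs), and the part of width was not tested. The control-only share of the Dll4 window had an interval (51.7 to 78.5%) apart from that of Notch1 (9.36 to 45.1%), while it overlapped those of Jag1, Notch4 and Hey1, where few peaks were counted. The median ratio of gTKO to control width was 0.84 at Dll4, 0.93 at Jag1, 0.83 at Notch1, 0.84 at Notch4 and 0.81 at Hey1. The lowest single ratio, 0.29, and the highest, 1.44, both came from the Notch1 window. Of 122 control peaks, 11 held 2 gTKO peaks, and 5.28% of all placed control peaks held 2 or more. Shared control peaks were wider in the 5 windows (median 849 bp) than over all placed chromosomes (508 bp). No gTKO peak held more than 1 control peak, and 1.07% of all placed gTKO peaks did.

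**Figure D5:**
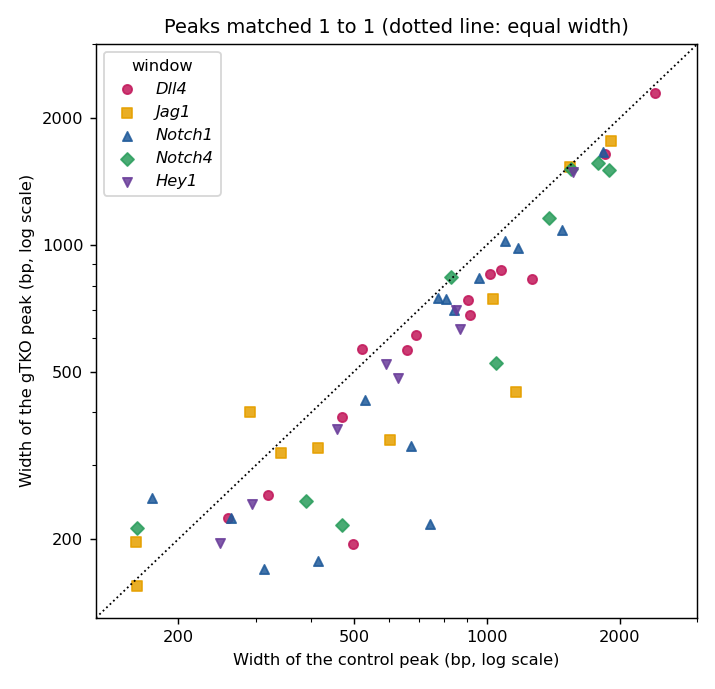
Width of the gTKO peak (bp, vertical log axis) against the width of its control partner (bp, horizontal log axis) for the 56 peaks matched 1 to 1, by window. The dotted line marks equal width, and 50 points lie under it, where the gTKO peak is the narrower.

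The windows were also set beside all windows of the same length laid end to end along the placed chromosomes that held at least 10 control peaks. They were laid from the start of each chromosome, and those that overlap the 5 windows were not left out. For Dll4, 38 of 1591 windows of 130 kb (2.39%) had a control-only share as high as its own. A gTKO coverage as low relative to control was found in 76 (4.78%). Both counts include the window that overlaps most of the Dll4 window. For Jag1 the share was reached by 46.8% of windows, for Notch1 by 53.6%, for Notch4 by 22.2% and for Hey1 by 46.7%. The Dll4 window was also dense. Only 8 of the 1591 windows held as many control peaks, with control-only shares of 9.09 to 60.7% (median 39.3%), and the part of density in the Dll4 value was not tested. These ranks describe the lists and are no test of genotype.

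The windows are wider than the genes they are named for. In the GRCm38 RefSeq annotation the next protein-coding genes are Vps18 and Chac1 beside Dll4, Slx4ip and Btbd3 beside Jag1, Sec16a and Egfl7 beside Notch1, Btnl6 and Gpsm3 beside Notch4, and Stmn2 and LOC115489673 beside Hey1. The noncoding transcript Gm14207 overlaps Dll4, 0610009E02Rik and Mir6996 overlap Notch1, and LOC115489673 also overlaps Hey1. Peaks were not assigned to a gene, exon or intron within a window, since positions of these genes in mm9 were not used here. The first control peak beyond the high edge of the Dll4 window lay 4.46 kb outside and was control-only (119224166 to 119224765, 600 bp). The last peaks inside that edge, 224 bp in gTKO and 259 bp in control, were shared.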

How the data were processed

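The data are the start and end positions of ATAC-seq peaks in 2 deposited lists, 1 per genotype, for 3 gTKO and 3 control libraries of sorted retinal endothelial cells. Per the submitters' processing notes, Bowtie2, Picard, MACS2, bedtools and the build mm9 are named for the series, and neither the calling threshold nor the pooling of libraries nor the read depth is known here. The lists deposited by the authors have 3 columns and no score, fold, q-value or summit. A further 16 RNA-seq libraries were not analysed here.

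From these lists, overlaps, covered bp, widths of matched pairs and runs were computed with Python 3.11.15, numpy 2.4.6, pandas 2.3.3 and scipy 1.17.1, with figures by matplotlib 3.10.9. Unplaced sequences were left out. A window holds the peaks whose midpoint lies in it. All peaks of a list were classified before the windows were read out. The classification was tested on simulated data, a copy of the control list with known losses, trims and splits. In each window the text names the widest peak of each list, the 3 widest control-only peaks, every gTKO-only peak and the 1-to-1 pair whose widths differ most in bp. A few others were named after their values were seen. The windows and these rules were chosen with earlier results of these data known. Alternatives for the overlap, width, merging and window rules are given in the closing section.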

Additional observations from a re-analysis of the deposited data

How the results depend on the processing

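The 55 control-only peaks of the 5 windows became 35 with peaks of at least 200 bp, 27 with at least 300 bp, 36 with peaks within 150 bp merged and 20 without the Dll4 window. Their share, 45.1%, was 56.6% with 50% of both peaks covered and 35.5% with at least 300 bp. It was 35.3% after merging and 29.0% without the Dll4 window. Over all placed control peaks the share was 34.8% with 50% of both peaks covered, 24.9% with at least 300 bp and 24.2% after merging. Under the 1 bp rule with all peaks it was 27.0%. The 2 gTKO-only peaks became 27 with 50% of both peaks covered, 1 with at least 300 bp and 6 with equally many peaks per list. The gTKO-only shares over all placed gTKO peaks under these rules were not read out. The 35 control-only peaks of the Dll4 window became 23 with at least 200 bp, 15 with at least 300 bp and 22 after merging. Fewer peaks enter under the width limits and merging. The width limits also take out narrow partners, and a stricter overlap rule leaves fewer partners. Under each of the 9 other rules for overlap, width, list size, merging and window the control-only share of the Dll4 window (50.0 to 73.6%) stayed above that of all placed control peaks under the same rule (20.2 to 34.8%). Pairs with the narrower peak in gTKO numbered 50, and 79 in windows widened by 50 kb on each side. Control coverage was 82737 bp, and 49262 bp without the Dll4 window. Leaving out the Dll4 window was added after seeing the data. Beside the Dll4 control-only count, which moved by more than 1.5 times in the 3 cases given, the other 9 counts of single windows gave 81 values, of which 61 stayed within 1.5 times of the reported count and 20 did not. No paired analysis was possible because the libraries of a genotype share 1 list, and no library could be left out. Read depth is unknown, and its part in these counts was not tested.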
